A study of Mus musculus with 6 samples.

Results

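The genes described here are 45 mouse genes for metalloproteases, the plasminogen system and their inhibitors. They were chosen by symbol and matched by Ensembl identifier to the 46983 genes counted in 6 RNA sequencing libraries. By role, 35 belong to protease families, 8 belong to inhibitor families and 2 encode partners of a protease, a receptor and an enhancer. Adam23, counted with the proteases by family, has no protease activity. All 45 were found, and 41 of them stood among the 15199 genes with enough counts to be tested.

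Of the libraries, 3 carry the label SphK2 null and 3 the label wild type, and SphK2 is sphingosine kinase 2, which makes the lipid signal sphingosine-1-phosphate. All were made from mouse embryonic fibroblasts, the connective tissue cells cultured from embryos, here C57BL/6 embryos of 14 days at passage 16 in DMEM with 10% fetal bovine serum. By its title the series concerns stromal fibroblasts in breast cancer, and it compares transcript levels between the genotypes. Nothing in the labels ties the 3 libraries of a group to different cultures or embryos, so the p-values rest on a spread that may be technical.

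Proteases of these families cut the matrix around cells, and fibroblasts are among their main producers. Matrix metalloproteinases (MMPs) and the ADAM and ADAMTS enzymes carry a zinc ion at the active site and are held in check by tissue inhibitors (TIMPs). The plasminogen activators are serine proteases that turn plasminogen into plasmin, and they are held in check by serpins, inhibitors that trap the enzyme they meet.

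Levels are given as counts, as CPM (counts relative to the scaled library total) or, where genes are compared with each other, as TPM (which also divides by exonic length). Fold changes are log2 values of null-labelled over wild-type-labelled libraries with their standard errors (SE), and n is 3 libraries in each group throughout. Those SEs come from the test statistic and understate counting error where a group holds few counts. A gene was called at an adjusted p under 0.05 in edgeR's quasi-likelihood test with Benjamini-Hochberg adjustment over all genes tested.

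Sphk2 itself had 49.4, 51.6 and 49.1 CPM in the null-labelled libraries, against 28.1, 27.4 and 26.3 CPM in the wild-type-labelled ones. It was thus higher in all 3 libraries that carry the null label (log2 fold change 0.87 ± 0.051 SE, edgeR adjusted p = 4.48e-64). Which exons the allele removes is not given in the sources used here, and counts sum over all exons. Of the exonic bases of Sphk2, 20.8% are shared with another gene and add no counts in either group. Sphk1, the other sphingosine kinase, was lower (-0.91 ± 0.095 SE, edgeR adjusted p = 4.13e-21). Genotype thus cannot be read from these counts, and all directions below are between labels.

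Libraries held 15598566 to 23681718 counts in genes, at which 3 counts are 0.127 to 0.192 CPM. Transcript differences were broad: 79.2% of all genes tested were called, 38.1% higher and 41.1% lower, with a median log2 fold change of -0.02. Scaled by library totals alone, 6334 genes were higher and 5707 lower, so which direction held more calls depends on the scaling.

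Of 15 fibroblast markers, 15 were lower in null-labelled libraries, beside 41.1% lower among all genes tested. In null-labelled libraries 11 stayed at 1 CPM or more, and Thy1, Lum, Fap and Dcn lay below. The collagen and fibronectin markers, Thy1, Fap, Dcn and Lum thus go against the labelled cell type in the null-labelled libraries. Other fibroblast markers remained at lower levels. Among them, Pdgfrb and S100a4 averaged 29.0 and 26.1 CPM in null-labelled and 106.9 and 519.9 CPM in wild-type-labelled libraries. Pdgfra, a growth factor receptor, averaged 89.4 ± 1.19 CPM in null-labelled and 249.6 ± 7.5 CPM in wild-type-labelled libraries (SD, n = 3), and the transcription factors Prrx1, Twist1 and Twist2 averaged 59.7, 59.5 and 14.7 CPM in null-labelled and 549.9, 159 and 72.5 CPM in wild-type-labelled libraries. Summed over that list, markers stood at 3491 to 3530 CPM in null-labelled and 15570 to 16040 CPM in wild-type-labelled libraries, and Vim, which many cell types express, made up 3211 ± 17.9 CPM of the first sum (SD, n = 3). Collagen gene Col1a1 had 35, 31 and 27 counts in null-labelled and 14379, 9785 and 11630 counts in wild-type-labelled libraries, and the surface antigen Thy1 had 0 counts in all null-labelled ones. The 11 epithelial markers summed to 388 to 414 CPM in null-labelled and 108 to 111 CPM in wild-type-labelled libraries, almost all of it the keratin Krt8, while Epcam and Cdh1 stayed at or under 0.576 CPM in every library. Krt7 and Ovol1 were also higher, averaging 1.27 and 2.39 CPM in null-labelled and 0.0537 and 0.530 CPM in wild-type-labelled libraries. Krt18 was lower, averaging 0.289 CPM in null-labelled and 1.19 CPM in wild-type-labelled libraries. The 9 leukocyte markers summed to 6.07 to 6.71 CPM in null-labelled and 4.07 to 4.29 CPM in wild-type-labelled libraries. Of these, Ptprc, Adgre1, Itgam, Aif1 and Tyrobp had at most 5 counts in every library, while Lyz2 had 58, 43 and 51 counts in null-labelled and 1, 0 and 1 counts in wild-type-labelled libraries, and Csf1r had 24, 21 and 11 counts in null-labelled and 6, 3 and 7 counts in wild-type-labelled ones. Cd68 was lower, with 42, 30 and 39 counts in null-labelled and 78, 51 and 61 counts in wild-type-labelled libraries. The 8 endothelial markers summed to 23.8 to 27.0 CPM in null-labelled and 12.65 to 13.4 CPM in wild-type-labelled libraries, mostly Egfl7. Pecam1 was higher too and Cdh5 lower, and Kdr, Tek, Emcn and Erg had at most 4 counts in any library. Tie1, which was not tested, had 10, 8 and 9 counts in null-labelled and 0, 3 and 3 counts in wild-type-labelled libraries.

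Neural markers went both ways. The 8 of them summed to 492 to 520 CPM in null-labelled and 432 to 441 CPM in wild-type-labelled libraries, mostly Nes. Sox2 had 1, 3 and 1 counts in null-labelled and 2592, 1716 and 2146 counts in wild-type-labelled libraries, and Map2 had 1 count over the null-labelled and 235 over the wild-type-labelled ones. Pax6 had 1085, 1010 and 1044 counts in null-labelled and 136, 81 and 129 counts in wild-type-labelled libraries. The 10 markers of extraembryonic endoderm and trophoblast summed to 3.69 to 4.11 CPM in null-labelled and 4.03 to 4.60 CPM in wild-type-labelled libraries. Of the 4 tested, 1 was higher and 3 were lower, beside 38.1% higher and 41.1% lower among all genes tested. Gata4 had 29, 37 and 46 counts in null-labelled and 0, 3 and 0 counts in wild-type-labelled libraries. Gata6 was lower (1 and 49 counts over the null-labelled and wild-type-labelled libraries), as were Eomes (6 and 55) and Afp (96 and 137). The 7 skeletal muscle markers summed to 4.53 to 5.55 CPM in null-labelled and 4.78 to 6.23 CPM in wild-type-labelled libraries. Members of these lists thus differ between the labels beside every result below, and their part in those results was not tested. In bulk RNA, fewer cells of a type and less RNA per cell cannot be told apart.

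Short stretches before the transcription start show how the promoters of these genes differ in letters. RefSeq's table (GRCm38.p6) held a promoter entry for 30 of the 45 genes, and each entry was searched for short motifs on both strands over the 250 bases before the start. The AP-1 motif TGAGTCA, read TGACTCA on the other strand, is the element through which Fos and Jun proteins are known to act on several MMP genes. It stood in entries of 5 genes, Mmp3, Mmp10, Mmp13, Plaur and Adam19, and in 4.46% of all 32851 promoter entries. The TATA motif TATAAA (or TTTATA) stood in 4 genes, Mmp3, Mmp10, Mmp13 and Adamts1, and in 12.4% of all entries. The GC box GGGCGG (or CCGCCC), bound by SP1 family factors, stood in 20 genes and in 32.7% of all entries. CCAAT (or ATTGG) stood in 10 genes and 33.8% of entries, and the ETS core AGGAAG (or CTTCCT) in 13 genes and 29.5% of entries. A match describes the letters only and does not show that a factor binds.

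The 120 bases before the start are printed below for 6 genes, 5′ to 3′ on the strand of the gene. Mmp13, Mmp3, Mmp10 and Plaur are shown because they share the AP-1 letters, with the protease genes lower and the receptor gene higher in null-labelled libraries. Serpine2 and Adam10 are shown because both lack AP-1 and TATA letters and hold GC boxes, with one lower and the other higher. Capitals mark AP-1 and TATA matches in the MMP genes, the AP-1 match in Plaur and the GC boxes in Serpine2 and Adam10. Positions are chr9:7272394-7272513 (plus strand) for Mmp13, chr9:7445702-7445821 (plus) for Mmp3, chr9:7502222-7502341 (plus) for Mmp10, chr7:24462363-24462482 (plus) for Plaur, chr1:79858666-79858785 (minus) for Serpine2 and chr9:70678862-70678981 (plus) for Adam10.
Mmp13: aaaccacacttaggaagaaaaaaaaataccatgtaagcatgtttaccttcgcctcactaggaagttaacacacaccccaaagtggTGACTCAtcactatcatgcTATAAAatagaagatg
Mmp3: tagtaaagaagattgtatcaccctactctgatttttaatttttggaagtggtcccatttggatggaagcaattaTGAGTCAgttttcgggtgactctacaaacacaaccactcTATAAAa
Mmp10: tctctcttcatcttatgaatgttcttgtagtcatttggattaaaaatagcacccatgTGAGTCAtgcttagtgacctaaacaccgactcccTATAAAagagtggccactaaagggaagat
Plaur: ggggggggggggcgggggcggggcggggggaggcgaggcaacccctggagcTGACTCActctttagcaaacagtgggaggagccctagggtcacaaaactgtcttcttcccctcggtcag
Serpine2: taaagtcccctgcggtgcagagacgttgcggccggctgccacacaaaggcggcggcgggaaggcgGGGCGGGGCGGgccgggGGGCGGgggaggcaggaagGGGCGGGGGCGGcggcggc
Adam10: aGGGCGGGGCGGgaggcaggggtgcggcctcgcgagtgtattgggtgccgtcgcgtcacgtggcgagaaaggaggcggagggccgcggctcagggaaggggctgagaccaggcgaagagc
Counting back from the base before the start, the AP-1 match begins at base 35 in Mmp13, 46 in Mmp3, 63 in Mmp10 and 69 in Plaur. The TATA match begins at base 16 in Mmp13, 7 in Mmp3 and 29 in Mmp10. The 3 MMP entries are poor in G and C, at 40.4% in Mmp13, 37.6% in Mmp3 and 37.2% in Mmp10, against a median of 52.4% over all entries. Serpine2 (78.8%) and Adam10 (74%) lie far above that median.

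Proteases were mostly lower in the null-labelled libraries, and the exceptions were a small group of cell surface ADAMs, Adamts6 and Htra3. Of 32 protease genes tested, 26 were lower and 6 higher, beside 41.1% lower and 38.1% higher among all genes tested. By over 2-fold, 23 of the 32 were lower and 1 was higher, beside 15.8% and 10.4% of all genes. The median log2 fold change of the tested proteases was -2.25, beside -0.02 over all genes tested. The groups did not overlap in any of the 41 tested members, which holds for 79.9% of all genes. A low gene that passed the filter only through the group where it was high had to differ, so these counts are descriptions, and the largest edgeR adjusted p over the 41 members was 4.56e-05 (Adamts6). The remaining 3 proteases, Mmp15, Mmp17 and Mmp24, had at most 6 counts in any library and were not tested.

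**Figure D1:**
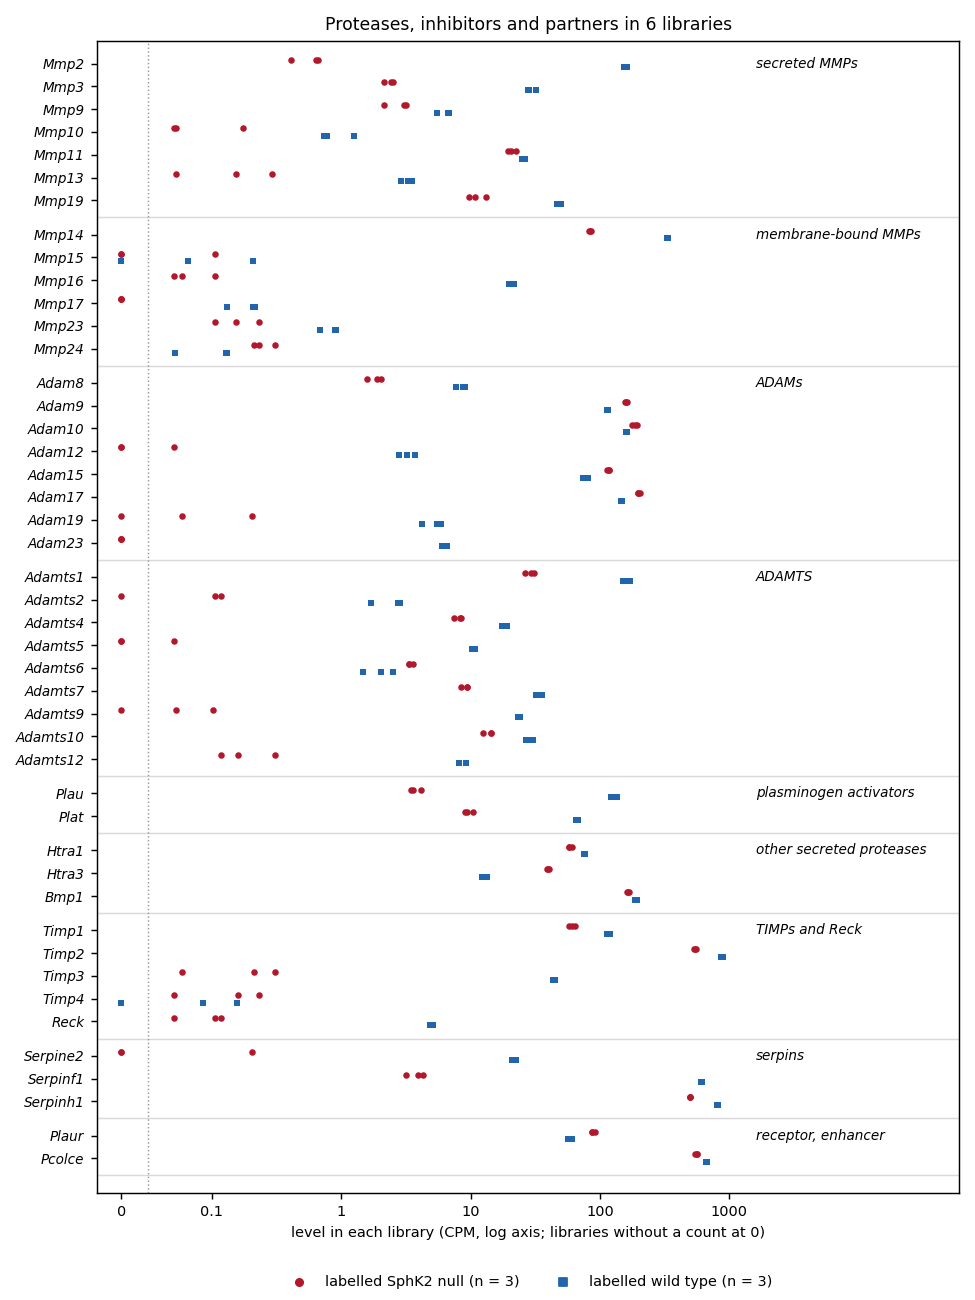
Level of each of the 45 genes in each library, in CPM on a log axis, with libraries without a count drawn at 0 left of the dotted line; red circles are null-labelled and blue squares wild-type-labelled libraries (n = 3 each). Circles lie left of squares for most secreted and membrane-bound MMPs, and right of them for Adam9, Adam10, Adam15, Adam17 and Htra3.

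**Figure D2:**
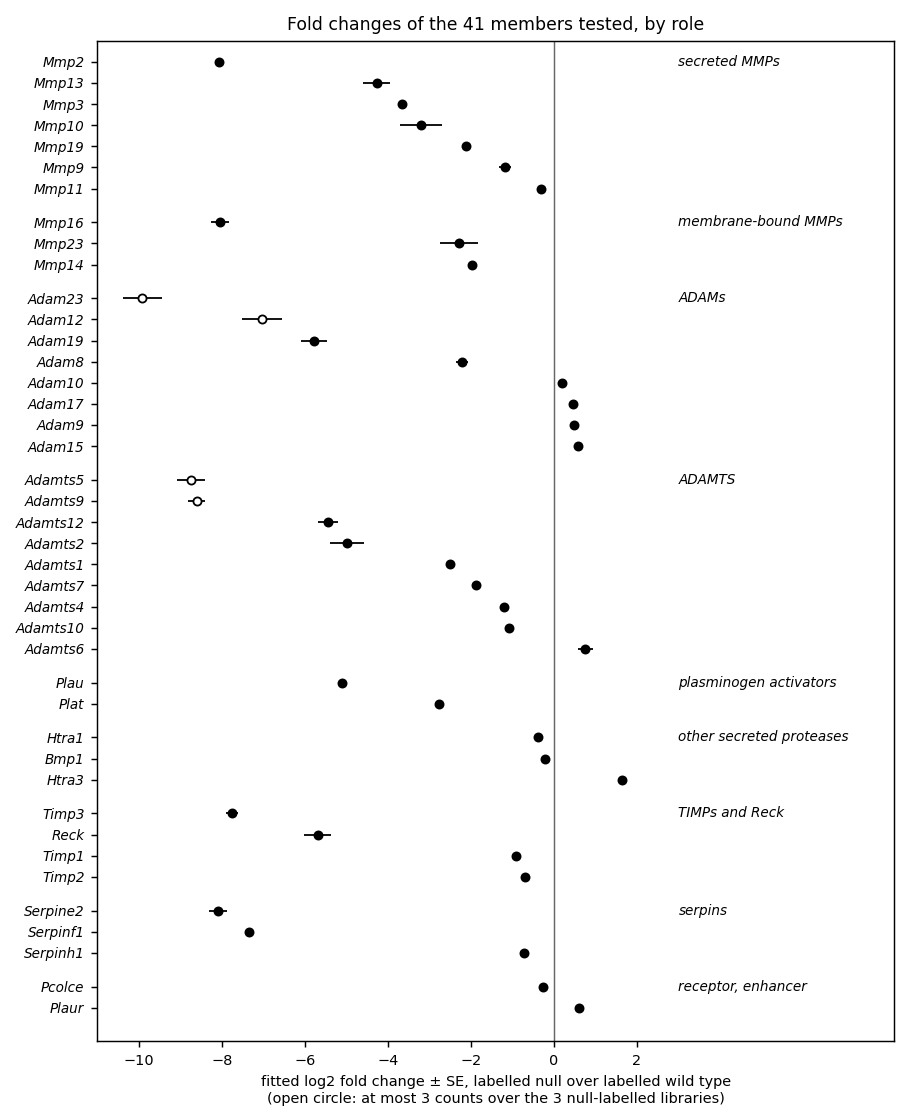
Fitted log2 fold change of each of the 41 tested genes with its SE, null-labelled over wild-type-labelled, grouped by role; open circles mark genes with at most 3 counts over the null-labelled libraries, whose fitted value is no bound. Of the tested members, 34 lie left of 0 and 7 right of it. Among all genes tested, 41.1% were called lower and 38.1% higher.

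All 7 secreted MMPs were lower, beside 41.1% of all genes tested. Mmp2, gelatinase A, which cleaves denatured collagen and basement membrane collagen, had 0.666, 0.409 and 0.640 CPM in null-labelled libraries, against 158, 161 and 152 CPM in wild-type-labelled ones. The null-labelled libraries thus held almost none of a transcript that was abundant in each wild-type-labelled library, with a log2 fold change of -8.07 ± 0.086 (SE). That value rests on 32 counts over the null-labelled libraries, so its SE understates the counting error. Mmp2 lies on the plus strand of chromosome 8 from 92827328 to 92853417 (mm10). Mmp3, stromelysin-1, a protease of broad range that also activates other MMPs, had 2.41, 2.51 and 2.13 CPM in null-labelled and 32.0, 28.0 and 28.2 CPM in wild-type-labelled libraries (-3.65 ± 0.10 SE). Mmp19 had 10.9, 13.1 and 9.70 CPM in null-labelled and 49.9, 48.3 and 46.3 CPM in wild-type-labelled libraries (-2.11 ± 0.063 SE), and 23.1% of its exonic bases, shared with another gene, went uncounted in both groups. In both genes every null-labelled library lay well below every wild-type-labelled one.

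The other secreted MMPs differed by less or were low in both groups. Mmp9, gelatinase B, had 2.15, 3.04 and 3.15 CPM in null-labelled and 5.51, 6.82 and 6.65 CPM in wild-type-labelled libraries (-1.18 ± 0.145 SE). Mmp11, stromelysin-3, a stromal enzyme known from breast tumours, had 19.5, 22.4 and 20.6 CPM in null-labelled and 25.1, 25.4 and 26.4 CPM in wild-type-labelled libraries. Its difference was the least among the secreted MMPs (-0.30 ± 0.063 SE, edgeR adjusted p = 3.03e-06), although the groups still did not overlap. The collagenase Mmp13 had 3, 5 and 1 counts in null-labelled and 82, 50 and 55 counts in wild-type-labelled libraries (-4.26 ± 0.33 SE, and -4.87 without null-labelled replicate 2). Mmp10, stromelysin-2, had 1, 3 and 1 counts in null-labelled and 18, 19 and 14 counts in wild-type-labelled libraries (-3.21 ± 0.50 SE, and -3.93 without null-labelled replicate 2). Both were near the floor of 3 counts in the null-labelled libraries, so the size of their difference is uncertain.

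Mmp13, Mmp3 and Mmp10 lie in a cluster of 10 Mmp genes that spans 427 kb of chromosome 9. Of the 10 genes, 6 had at most 3 counts in every library of either group, so most of the cluster was at or near 0 under both labels. Mmp1a, in the gap between Mmp3 and Mmp10 and named after its values were seen, had 6, 3 and 3 counts in null-labelled and 1, 3 and 0 counts in wild-type-labelled libraries and was not tested. The gap from Mmp13 to Mmp3 is 162.5 kb and that from Mmp3 to Mmp10 is 46.4 kb. The other close pair of members, Adamts1 and Adamts5 on chromosome 16, lies 55.1 kb apart.

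Of the membrane-bound MMPs, all 3 tested were lower, by very different amounts, beside 41.1% lower among all genes tested. Mmp14, the membrane enzyme MT1-MMP that activates the Mmp2 proenzyme at the cell surface, had 82.9, 86.0 and 83.6 CPM in null-labelled and 332, 329 and 336 CPM in wild-type-labelled libraries (-1.98 ± 0.029 SE). Its libraries were tight within each group and far apart between them. Mmp16, a second membrane enzyme of that kind, had 1, 1 and 2 counts in null-labelled and 502, 302 and 388 counts in wild-type-labelled libraries (-8.03 ± 0.22 SE). With 4 counts over the null-labelled libraries, the size of this difference is uncertain beyond its SE. Mmp23 was low in both, with 3, 4 and 2 counts in null-labelled and 16, 14 and 17 counts in wild-type-labelled libraries (-2.28 ± 0.45 SE). The untested Mmp15, Mmp17 and Mmp24 had 2, 0 and 14 counts over the null-labelled libraries and 5, 11 and 6 counts over the wild-type-labelled ones.

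The 8 ADAMs divided into 4 higher and 4 lower, beside 38.1% higher and 41.1% lower among all genes tested, a split about as even. The higher ones, Adam9, Adam10, Adam15 and Adam17, are broadly expressed, and Adam10 and Adam17 are the main sheddases of the cell surface, releasing Notch and growth factor ligands among others. Adam17, which frees tumour necrosis factor, had 205, 196 and 197 CPM in null-labelled and 145, 147 and 146 CPM in wild-type-labelled libraries (0.45 ± 0.029 SE). Adam9 had 161, 155 and 160 CPM in null-labelled and 114, 114 and 115 CPM in wild-type-labelled libraries (0.47 ± 0.031 SE). Of the exonic bases of Adam15, 20.55% are shared with another gene and add no counts in either group. Adam15 had 113, 118 and 118 CPM in null-labelled and 74.3, 81.5 and 77.8 CPM in wild-type-labelled libraries (0.58 ± 0.036 SE). Each null-labelled library of these genes lay above each wild-type-labelled one, by less than 1.5-fold on average. Adam10 had 192, 185 and 178 CPM in null-labelled and 158, 162 and 163 CPM in wild-type-labelled libraries, a difference of 0.20 ± 0.029 (SE, edgeR adjusted p = 3.92e-12).

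The 4 lower ADAMs summed to 1.33 ± 0.172 TPM in null-labelled and 10.5 ± 0.455 TPM in wild-type-labelled libraries (SD, n = 3), far below the sum of the higher 4 given further on. Adam8 had 1.90, 1.58 and 2.03 CPM in null-labelled and 8.82, 9.12 and 7.70 CPM in wild-type-labelled libraries (-2.21 ± 0.147 SE). Adam19, or meltrin beta, had 4, 1 and 0 counts in null-labelled and 137, 64 and 106 counts in wild-type-labelled libraries (-5.78 ± 0.32 SE, and -7.27 without null-labelled replicate 1). Adam23, a member without protease activity that acts in cell adhesion, had no count in null-labelled libraries and 154, 91 and 124 counts in wild-type-labelled ones. That is at least 118-fold lower, with the group at 0 set to 3 counts over its libraries. Adam12, or meltrin alpha, had 1, 0 and 0 counts in null-labelled and 65, 49 and 71 counts in wild-type-labelled libraries, a ratio of 178 (95% counting interval 31.6 to 7067). Its single null-labelled count was in replicate 1.

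Among the 9 ADAMTS enzymes, secreted proteases of proteoglycans and procollagens, 8 were lower and 1 was higher. Of all genes tested, 41.1% were lower and 38.1% higher. Adamts1, which cleaves the proteoglycans versican and aggrecan, had 30.8, 29.1 and 26.2 CPM in null-labelled and 170, 166 and 151 CPM in wild-type-labelled libraries (-2.50 ± 0.041 SE). Adamts4, aggrecanase-1, had 8.40, 8.24 and 7.46 CPM in null-labelled and 18.8, 19.0 and 17.6 CPM in wild-type-labelled libraries (-1.20 ± 0.086 SE). Its relative Adamts5, aggrecanase-2, had 1, 0 and 0 counts in null-labelled and 251, 162 and 195 counts in wild-type-labelled libraries. The 2 aggrecanases thus stood apart, with Adamts4 still present at several CPM and Adamts5 at a single count, all in null-labelled replicate 1. Adamts9, also a protease of versican, had 2, 0 and 1 counts in null-labelled and 548, 354 and 463 counts in wild-type-labelled libraries, and its replicate 2 held none.

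Adamts7 and Adamts12, known to cleave cartilage oligomeric matrix protein, were lower by different amounts. Adamts7 had 9.38, 8.41 and 9.44 CPM in null-labelled and 32.4, 35.6 and 32.3 CPM in wild-type-labelled libraries (-1.87 ± 0.072 SE). Adamts12 had 6, 2 and 3 counts in null-labelled and 216, 124 and 176 counts in wild-type-labelled libraries (-5.45 ± 0.24 SE). Adamts10, a binder of fibrillin microfibrils, had 14.4, 12.4 and 14.3 CPM in null-labelled and 29.8, 26.8 and 30.3 CPM in wild-type-labelled libraries (-1.08 ± 0.067 SE). Its close homologue Adamts6 went the other way, with 3.59, 3.33 and 3.36 CPM in null-labelled and 2.50, 2.03 and 1.47 CPM in wild-type-labelled libraries (0.76 ± 0.18 SE). For Adamts6 the wild-type-labelled libraries were the more spread group, and the highest of them stayed below the lowest null-labelled one.

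Adamts2 removes the amino-terminal propeptide of fibrillar procollagens, a step shared with Adamts3 and Adamts14. Adamts2 had 0, 2 and 2 counts in null-labelled and 64, 26 and 54 counts in wild-type-labelled libraries (-4.98 ± 0.41 SE). Its fitted value rests on 4 counts over the null-labelled libraries and is uncertain in size. Adamts3 had 5.43, 6.19 and 5.12 CPM in null-labelled and 0.774, 0.591 and 0.367 CPM in wild-type-labelled libraries (3.22 ± 0.21 SE, edgeR adjusted p = 7.05e-51). Adamts14 had 22.1, 22.6 and 23.0 CPM in null-labelled and 53.5, 55.6 and 51.7 CPM in wild-type-labelled libraries (-1.24 ± 0.053 SE, edgeR adjusted p = 4.12e-122). Of the 3 enzymes, Adamts14 had the highest mean TPM in both groups, and Adamts3 alone was higher in null-labelled libraries. Adamts3 and Adamts14 are not among the 45 genes and were singled out after their values were seen.

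The enzyme for the opposite end of procollagen differed by little. Bmp1, the procollagen C-proteinase, had 164, 163 and 167 CPM in null-labelled and 193, 192 and 187 CPM in wild-type-labelled libraries (-0.21 ± 0.028 SE). Pcolce, the enhancer protein that speeds this cut, had 541, 563 and 566 CPM in null-labelled and 663, 663 and 674 CPM in wild-type-labelled libraries (-0.26 ± 0.022 SE). Both were lower by less than 1.2-fold, with groups that did not overlap. The HtrA serine proteases diverged: Htra3 had 40.4, 39.9 and 39.1 CPM in null-labelled and 12.6, 12.3 and 13.5 CPM in wild-type-labelled libraries (1.63 ± 0.064 SE, edgeR adjusted p = 1.35e-143). Htra1, which digests several matrix proteins, had 60.5, 58.0 and 57.9 CPM in null-labelled and 75.5, 76.6 and 76.3 CPM in wild-type-labelled libraries (-0.37 ± 0.041 SE). Htra3 was the one member higher by over 2-fold.

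The plasminogen system showed lower activators and a higher receptor in null-labelled libraries. Plau, urokinase, had 3.48, 3.56 and 4.11 CPM in null-labelled and 122, 136 and 129 CPM in wild-type-labelled libraries (-5.11 ± 0.065 SE). Plat, tissue plasminogen activator, had 9.43, 9.11 and 10.4 CPM in null-labelled and 65.5, 68.2 and 64.8 CPM in wild-type-labelled libraries (-2.77 ± 0.061 SE). By mean TPM, Plau, the higher of the pair in wild-type-labelled libraries, was the lower of the pair in the null-labelled ones. Plaur, which holds urokinase at the cell surface, had 86.5, 87.5 and 92.0 CPM in null-labelled and 56.8, 56.2 and 60.5 CPM in wild-type-labelled libraries (0.62 ± 0.040 SE, edgeR adjusted p = 8.44e-53). Plg, the plasminogen gene itself, had 0 counts in all 6 libraries, which allows up to 0.127 to 0.192 CPM per library by counting error.

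Serpine2, protease nexin 1, a serpin that inhibits the plasminogen activators and thrombin, had 4, 0 and 0 counts in null-labelled and 484, 345 and 402 counts in wild-type-labelled libraries (-8.09 ± 0.22 SE). All of its null-labelled counts were in replicate 1, and without that library the fitted value was -11.65, which rests on a group at 0 and is no bound. Transcripts of both activators and of this serpin were thus lower together, while the receptor was higher.

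**Figure D3:**
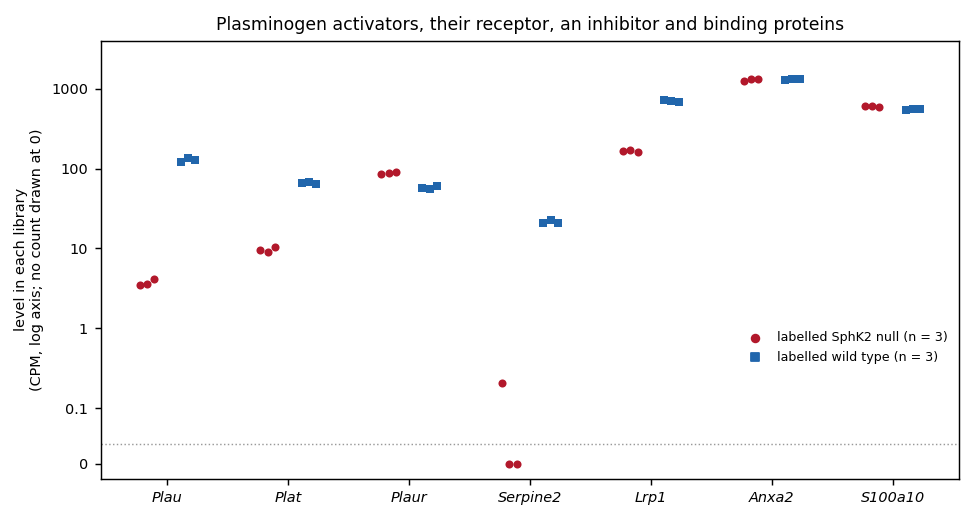
Levels of the plasminogen activators, the urokinase receptor, the serpin Serpine2 and binding or clearance receptors in each library, in CPM on a log axis with libraries without a count drawn at 0; red circles are null-labelled and blue squares wild-type-labelled (n = 3 each). Plau, Plat, Serpine2 and Lrp1 lie lower and Plaur higher in null-labelled libraries, while Anxa2 overlaps.

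Receptors that bind plasminogen or clear its activators are not among the 45 genes. Anxa2, which binds plasminogen and its activator at the cell surface, averaged 1301 ± 32.4 CPM in null-labelled and 1305 ± 25.2 CPM in wild-type-labelled libraries (SD, n = 3) and was not called (edgeR adjusted p = 0.851). Its partner S100a10 was higher by 0.11 ± 0.023 (SE). Lrp1, the endocytic receptor that removes protease and serpin complexes, had 168, 171 and 160.0 CPM in null-labelled and 724, 695.5 and 678 CPM in wild-type-labelled libraries (-2.07 ± 0.025 SE). These 3 genes were singled out after their values were seen. Vldlr, a related receptor, had 2, 0 and 2 counts in null-labelled and 466, 331 and 386 counts in wild-type-labelled libraries. Igf2r, which binds plasminogen and the urokinase receptor, averaged 8.82 ± 0.295 CPM in null-labelled and 233 ± 4.78 CPM in wild-type-labelled libraries (SD, n = 3). Of the 10 genes of that list, 3 were higher, 6 lower and 1 not called, beside 38.1% higher and 41.1% lower among all genes tested.

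Of the 8 genes of inhibitor families, 7 were tested and all 7 were lower, beside 41.1% of all genes tested. By over 2-fold 4 of the 7 were lower, beside 15.8% of all genes. The median log2 fold change of the 7 was -5.69, beside -0.02 over all genes tested, and it lies at the edge of a gap, with 3 of the 7 between -0.70 and -0.92 and 4 between -5.69 and -8.09. With no filter on low counts, which adds Timp4, the median was -3.33. This class is named by family: Serpinf1 encodes pigment epithelium-derived factor and Serpinh1 the collagen chaperone HSP47, and neither serpin is known to inhibit a protease. The largest edgeR adjusted p of the 7 was 5.51e-67 (Reck).

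Of the 4 TIMPs, Timp1 and Timp2 stayed abundant under the null label, while Timp3 was almost absent there. Timp2, which inhibits MMPs and takes part in the activation of the Mmp2 proenzyme by Mmp14, had 543, 536 and 553 CPM in null-labelled and 868, 896 and 885 CPM in wild-type-labelled libraries (-0.70 ± 0.022 SE). Timp1, a weak inhibitor of the membrane-bound MMPs, had 58.1, 60.8 and 64.7 CPM in null-labelled and 113, 114 and 121 CPM in wild-type-labelled libraries (-0.92 ± 0.037 SE). Both were lower by less than 2-fold, with groups well apart. Timp3, the matrix-bound TIMP that also inhibits Adam17 and the aggrecanases, had 6, 1 and 4 counts in null-labelled and 1005, 683 and 838 counts in wild-type-labelled libraries (-7.74 ± 0.145 SE). Of its exonic bases, 21.3% are shared with another gene and add no counts in either group. Timp4 had 1, 4 and 3 counts in null-labelled and 2, 0 and 3 counts in wild-type-labelled libraries and was not tested.

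Reck, a membrane-anchored inhibitor of Mmp2, Mmp9 and Mmp14, had 1, 2 and 2 counts in null-labelled and 120, 74 and 94 counts in wild-type-labelled libraries (-5.69 ± 0.33 SE). The size of this difference is uncertain, as it rests on 5 counts over the null-labelled libraries. Serpinf1 had 3.89, 4.26 and 3.20 CPM in null-labelled and 602, 613 and 616 CPM in wild-type-labelled libraries (-7.33 ± 0.046 SE). Each null-labelled library thus held a few CPM of a transcript that was abundant in each wild-type-labelled one. Serpinh1 had 493, 495 and 498 CPM in null-labelled and 818, 819 and 803 CPM in wild-type-labelled libraries (-0.72 ± 0.022 SE). Serpinh1 kept a high level under both labels, as Timp2 did.

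Members with almost no transcript under the null label are set out by a common limit. Of the 39 members at 1 CPM or more in wild-type-labelled libraries, 7 had at most 3 counts in every null-labelled library: Mmp16, Adam12, Adam23, Adamts2, Adamts5, Adamts9 and Reck. Among all genes at 1 CPM or more in wild-type-labelled libraries, 5.31% did so. The reverse held for 0.786% of all genes at 1 CPM or more in null-labelled libraries and for no member. At 1 CPM or more on average stood 26 members in null-labelled and 39 in wild-type-labelled libraries. Of Adamts9 and Adamts5, the ratio over all libraries was 438 and 585 by the counts given above, where 95% counting intervals run from 149 to 2125 and from 105 to 23140.

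**Figure D4:**
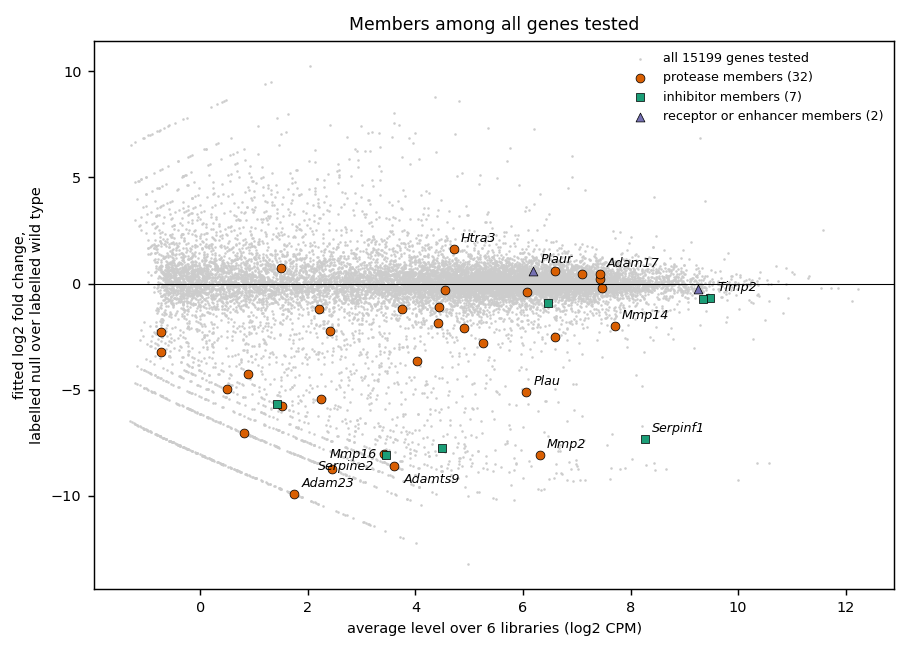
Fitted log2 fold change (null-labelled over wild-type-labelled) against the average level over the 6 libraries in log2 CPM for all 15199 genes tested in grey, with the 32 proteases, 7 inhibitors and 2 receptor or enhancer genes marked. The members spread from abundant genes near 0, such as Adam17 and Timp2, to genes far below it, such as Mmp2, Serpinf1 and Adam23.

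Per exonic length, the order of protease transcripts differed between the labels. In null-labelled libraries the highest were Bmp1 (143 ± 1.91 TPM), Adam9 (129 ± 2.38 TPM), Adam10 (123 ± 4.67 TPM) and Adam17 (90.7 ± 2.23 TPM), as mean ± SD (n = 3). In wild-type-labelled libraries the highest were Mmp14 (250.5 ± 2.65 TPM), Plau (178 ± 8.82 TPM), Mmp2 (168 ± 5.72 TPM) and Bmp1 (165 ± 3.98 TPM). Adam9 and Adam10 in the null-labelled order differ by no more than their summed SDs, and so do Plau and Mmp2, and Mmp2 and Bmp1, in the wild-type-labelled order. Among inhibitor families, Serpinh1 was first in both, at 663 ± 3.12 TPM in null-labelled and 1083 ± 20.4 TPM in wild-type-labelled libraries. Second was Timp2 in null-labelled libraries (455 ± 7.08 TPM) and Serpinf1 in wild-type-labelled ones (838 ± 3.38 TPM).

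Summed by role, the secreted MMPs came to 44.9 ± 3.82 TPM in null-labelled and 310.1 ± 10.3 TPM in wild-type-labelled libraries (SD, n = 3). The membrane-bound MMPs summed to 64.3 ± 1.28 TPM in null-labelled and 259.5 ± 2.85 TPM in wild-type-labelled libraries. Plau and Plat summed to 17.6 ± 1.31 TPM in null-labelled and 263 ± 10.5 TPM in wild-type-labelled libraries. The ADAMTS enzymes summed to 38.5 ± 2.04 TPM in null-labelled and 162 ± 8.05 TPM in wild-type-labelled libraries. All of these sums lay apart between the groups, and the sum of Adam9, Adam10, Adam15 and Adam17 lay apart the other way, at 404 ± 6.33 TPM in null-labelled and 305.5 ± 2.33 TPM in wild-type-labelled libraries. The 35 proteases of this list summed to 809 ± 6.94 TPM in null-labelled and 1571 ± 24.1 TPM in wild-type-labelled libraries (SD, n = 3). Of that falling sum, those 4 ADAMs made up 49.9 ± 0.377% in null-labelled and 19.45 ± 0.313% in wild-type-labelled libraries (SD, n = 3). Of the summed TPM of the listed MMPs, Mmp14 made up 58.5 ± 1.57% in null-labelled and 43.98 ± 0.839% in wild-type-labelled libraries. Mmp2 made up 0.567 ± 0.161% in null-labelled and 29.4 ± 0.687% in wild-type-labelled libraries.

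The TIMPs summed to 680 ± 17.5 TPM in null-labelled and 1174 ± 11.3 TPM in wild-type-labelled libraries (SD, n = 3). Set against the summed MMPs, the ratio of TIMP to MMP transcripts was 6.31, 5.84 and 6.56 in null-labelled and 2.00, 2.07 and 2.12 in wild-type-labelled libraries. The sums of TIMP and of MMP transcripts both lay lower under the null label, and their ratio lay 3.03-fold higher, with no overlap of libraries. Protein and activity were not measured. These sums and ratios are a description, given without a test. Because the sums are TPM, they depend on the exonic length of each gene.

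**Figure D5:**
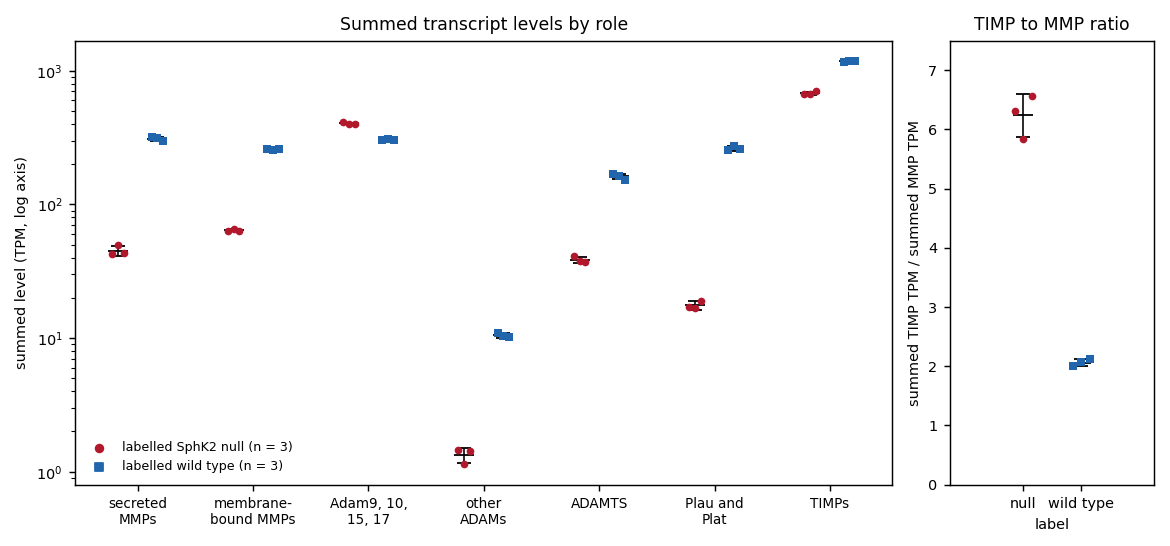
Left, summed TPM of each role in each library on a log axis; right, the ratio of summed TIMP to summed MMP TPM on a linear axis from 0. Red circles are null-labelled and blue squares wild-type-labelled libraries (n = 3 each), and bars give mean ± SD. The sums are lower in null-labelled libraries for each role drawn other than Adam9, Adam10, Adam15 and Adam17, and the ratio lies between 5.84 and 6.56 in null-labelled and between 2.00 and 2.12 in wild-type-labelled libraries.

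Other genes of these pathways, taken from lists that left out the 45 members, went both ways. Of 81, 49 were tested, of which 19 were higher, 25 lower and 5 not called, beside 38.1% higher and 41.1% lower among all genes tested, with a median log2 fold change of -0.26 beside -0.02 over all genes tested. Of the 10 other Mmp genes 1 was tested: Mmp28, or epilysin, averaged 6.36 ± 0.309 CPM in null-labelled and 4.03 ± 0.141 CPM in wild-type-labelled libraries (SD, n = 3). Of 8 other ADAMTS and ADAMTS-like genes tested, 4 were higher and 4 lower. Adamts20, a relative of Adamts9, had 104, 99 and 125 counts in null-labelled and 1, 0 and 1 counts in wild-type-labelled libraries, the reverse of Adamts9. Adamtsl1, an ADAMTS-like protein without a protease domain, had no count in null-labelled libraries and was at least 109.7-fold lower. Neither other ADAM gene tested was higher, with 1 lower and 1 not called.

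Of 11 other serpins and antiproteases tested, 6 were higher, 4 lower and 1 not called, beside 38.1% higher and 41.1% lower among all genes tested. Wfdc2, of the whey acidic protein family of putative protease inhibitors, averaged 239 ± 1.85 CPM in null-labelled and 3.67 ± 0.277 CPM in wild-type-labelled libraries (SD, n = 3), a log2 fold change of 6.01 ± 0.055 (SE). Serping1, the C1 inhibitor of complement, had 6, 10 and 3 counts in null-labelled and 140, 88 and 107 counts in wild-type-labelled libraries (-4.06 ± 0.24 SE).

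Among convertases and MMP partners, 3 of 9 tested were higher, 5 lower and 1 not called, beside 38.1% higher and 41.1% lower among all genes tested. Cd44, the hyaluronan receptor that docks Mmp9 and Mmp14, averaged 327 ± 6.12 CPM in null-labelled and 741 ± 8.83 CPM in wild-type-labelled libraries (SD, n = 3). Cd151, a tetraspanin, averaged 103 ± 3.37 CPM in null-labelled and 53.95 ± 0.839 CPM in wild-type-labelled libraries (SD, n = 3). Of 3 procollagen processing genes tested, none was higher, 2 were lower and 1 was not called, and Sparc, a collagen-binding protein, averaged 576 ± 10.6 CPM in null-labelled and 811 ± 17.9 CPM in wild-type-labelled libraries (SD, n = 3).

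Of 5 other HtrA and stromal serine proteases tested, 2 were higher and 3 lower, beside 38.1% higher and 41.1% lower among all genes tested. Fap, fibroblast activation protein, a membrane protease that is also one of the fibroblast markers, had 2, 4 and 0 counts in null-labelled and 673, 451 and 545 counts in wild-type-labelled libraries (-7.98 ± 0.18 SE, and -8.95 without null-labelled replicate 2). Prss23 had 0, 2 and 0 counts in null-labelled and 486, 352 and 418 counts in wild-type-labelled libraries, a ratio of 604 (95% counting interval 167 to 4994). Both null-labelled counts of Prss23 were in replicate 2.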

How the data were processed

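RNA was sequenced as single reads of 51 bp, per the labels. The authors deposited 1 file of gene counts per library, raw reads per Ensembl gene over its exons, made with featureCounts 1.6.2 from Ensembl release 83 on GRCm38, per the file headers. The submitters' processing notes name featureCounts 1.2.6, Subread 1.6.2, Trimmomatic 0.33 and FastQC 0.11.2. Per the file headers, no strand, multimapping or overlap option was used. By the program's defaults, reads over exons of several genes or with several places in the genome then go uncounted. Reads of the latter kind could be lost from close homologues such as Mmp3 and Mmp10, which was not measured.

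Of 46983 genes, 46488 (98.9%) were paired with a symbol by identifier. Groups follow the sample titles. Genes were filtered with filterByExpr (15199 left), normalised with TMM and compared between the labels (3 libraries each, no covariate) in edgeR 4.0.16 under R 4.3.3, by the robust quasi-likelihood F-test. Benjamini-Hochberg adjustment ran over all genes tested. Standard errors were derived from each log2 fold change and its F statistic, and they understate counting error at few counts. For Adam12, with 1 null-labelled count, the SE was 0.48 and the 95% counting interval of the ratio 31.6 to 7067. A group at 0 was set to 3 counts over its libraries for a fold bound, and for 1 to 3 counts the ratio has a 95% counting interval (exact binomial), which covers counting error only. TPM was computed from counts and the exonic length in the files. Alternatives were median-of-ratios factors, library totals alone, DESeq2 1.42.0, limma-voom (limma 3.58.1), no filter, a filter that needs over 1 CPM in 3 libraries, a replicate block, an adjusted p under 0.01, a 2-fold limit and leaving out each library in turn.

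The members, lists and tests were chosen with earlier results of these data known. Members averaging 1 or more in log2 CPM are given in every library, and the others by counts. From each other list, the 2 called genes with the largest differences that pass this same level are named. The sequences are RefSeq promoters of GRCm38.p6. No library pair within a group differed by as little as sampling noise (chi-square per degree of freedom 1.44 to 2.04), so each was counted once. That does not tell separate cultures from repeat preparations of the same culture. Beyond counting error, the common coefficient of variation between libraries of a group was 2.24%. Of the other lists, 1 gene is not reported here. Within a group, Pearson's r of log2 CPM over genes, which are not independent, was 0.995 to 0.996, and between groups 0.812 to 0.815.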

Additional observations from a re-analysis of the deposited data

How the results depend on the processing

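Of 613 fold changes of members under an alternative, 600 kept their direction and their side of the threshold, 13 no longer passed and 0 reversed. All 13 were under the alternative that also asks for a difference of over 2-fold, and they are Mmp11, Adam9, Adam10, Adam15, Adam17, Adamts6, Htra1, Bmp1, Timp1, Timp2, Serpinh1, Plaur and Pcolce. Under that alternative 1 protease was higher, 4 inhibitors were lower, and of receptor and enhancer genes 0 were higher and 0 lower. Over all genes 1583 were higher and 2399 lower, and of other pathway genes 10 were higher. The count of inhibitor genes higher was 0 with edgeR, DESeq2 and limma-voom, and as all 7 tested were lower at an adjusted p under 0.01, it is also 0 at an unadjusted p under 0.05. Without 1 library, 246 of 246 fold changes of members kept their call.

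With the replicate number as a block, 5765 genes were higher and 6238 lower, and no call of a member changed. Null-labelled and wild-type-labelled libraries of one number deviated from their group means at r of 0.0123, -0.0028 and 0.0181. No deviation shared by number was thus seen, which does not exclude that libraries of one number were handled together. The median log2 fold change of tested inhibitors was -5.40 without null-labelled replicate 1 and -3.33 with no filter, which adds a low gene. That of proteases was -2.37 without null-labelled replicate 2. Scalings moved the median of all genes within -0.03 to 0.04. With exonic bases shared with other genes taken off the length, an alternative added after seeing the data, the TIMP to MMP ratio was 6.06 in null-labelled and 2.02 in wild-type-labelled libraries. Depth limits tested members at 3 counts or fewer over the null-labelled libraries together, whose fold changes are bounds or wide ratios. Members at a few counts more, such as Mmp16, Adamts2 and Reck, have fitted values of uncertain size.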
